A study of Homo sapiens with 12 samples.

Results

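NTU1 is a human embryonic stem cell (hESC) line, and the 9 NTU1 arrays described here comprise 5 of sublines that had lost the maternally expressed noncoding RNA MEG3 (MEG3-OFF, arrays 5 to 9) and 4 of sublines that kept it (MEG3-ON, arrays 1 to 4), out of 12 arrays in all. No gene was deleted and no agent was given to either group: the sublines were sorted by quantitative PCR of MEG3, and all grew in medium without serum on feeders of mouse embryonic fibroblasts. How the sublines were separated is not given, so p-values measure only the spread between these samples, which may be technical. Passage numbers are not given either, and time in culture cannot be told apart from MEG3 status. All arrays lay on 1 chip with each group in adjoining positions, so position and group also cannot be told apart. Of 19951 genes with a probe, 10772 were above background (detection p under 0.01) on at least 4 of the 9 arrays and were tested, each by the probe with the highest mean signal.

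MEG3 lies in the imprinted DLK1-DIO3 locus, where it is transcribed from the maternal chromosome, and the whole maternal cluster can fall silent in cultured pluripotent cells. X-linked genes are another set whose silencing is known to vary between hESC lines. The question here was which gene functions, families and chromosomal neighbourhoods, other than the locus itself, neural markers and pluripotency markers, differed between the groups.

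Levels below are log2 normalized signals, differences are MEG3-OFF minus MEG3-ON on the log2 scale with their standard error (SE), and adjusted p-values are from limma with Benjamini-Hochberg adjustment over the 10772 genes. MEG3 itself, which checks the labels and defined the groups, was at 4.97 to 6.30 on MEG3-OFF arrays (above background on array 8 alone) and at 13.15 to 14.12 on MEG3-ON arrays. All 8 defining markers of pluripotent cells were above background on every array, with mean levels of 12.44 to 12.66 in MEG3-OFF and 12.4 to 12.49 in MEG3-ON. Their levels were not all alike. In a wider list of 25 tested pluripotency markers 5 were higher in MEG3-OFF at an adjusted p under 0.05 and 0 lower. That is 20% called, against 3.58% of all tested genes, with a defining marker among the 5. Leaving out 1 array gave 3 to 6 higher. Of 28 fibroblast and feeder markers, 14 to 17 were above background on MEG3-OFF arrays and 13 to 17 on MEG3-ON arrays, with mean levels of 6.96 to 7.13 and 6.96 to 7.24, and 9, among them COL3A1, DCN, FN1 and POSTN, on none. Detected probes numbered 16878 to 17727 per MEG3-OFF array and 16864 to 18390 per MEG3-ON array. MEG3-OFF array 5 stood least clearly with its own group, with a mean correlation of 0.980 to the other MEG3-OFF arrays and 0.978 to the MEG3-ON arrays.

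In all, 386 genes passed the threshold of 0.05 (3.58% of those tested), 199 of them higher in MEG3-OFF (1.85%) and 187 lower (1.74%). The count rested on single arrays. It was 996 without MEG3-OFF array 5, 213 without array 6, 241 without array 7 and 172 without array 9, and it was 204, 206 and 137 when MEG3-ON arrays 1, 2 and 4 were left out in turn. A core of 122 genes (53 higher, 69 lower) passed in each of the 9 fits that left out 1 array, and 0 of the 386 turned their sign in any of them. Where a gene named below lost its call without an array, that array is given with the gene group.

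Some genes crossed the detection limit between the groups. For 22 genes every MEG3-OFF array was at background and every MEG3-ON array above it, and 20 of these passed the test; for 11 genes it was the reverse, and all 11 passed. Of the 22, 5 are RNAs of the MEG3 locus and 3 are neural progenitor markers. These genes were chosen by their detection in these same arrays, so that most would pass and have groups that do not overlap followed from the choice, and both are given as a description; over all tested genes the groups did not overlap in 8.25%. ST8SIA3, which did not pass, was the 1 gene whose groups overlapped.

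ZNF280D, a C2H2 zinc finger gene on chromosome 15, was at 4.57 to 5.27 on the 5 MEG3-OFF arrays, against 9.70, 9.79, 9.88 and 10.04 on the MEG3-ON arrays, at least 16.1-fold lower (adjusted p = 4.96e-10). IAH1, an esterase gene on chromosome 2, was at 5.52 to 5.85 in MEG3-OFF and 8.27 to 8.79 in MEG3-ON (at least 5.92-fold lower, adjusted p = 6.79e-08). The promoters of both are printed because these genes were at background in 1 group only, with every CG dinucleotide, the unit of DNA methylation, in capitals. DNA methylation at these promoters was not measured on the arrays.
ZNF280D promoter: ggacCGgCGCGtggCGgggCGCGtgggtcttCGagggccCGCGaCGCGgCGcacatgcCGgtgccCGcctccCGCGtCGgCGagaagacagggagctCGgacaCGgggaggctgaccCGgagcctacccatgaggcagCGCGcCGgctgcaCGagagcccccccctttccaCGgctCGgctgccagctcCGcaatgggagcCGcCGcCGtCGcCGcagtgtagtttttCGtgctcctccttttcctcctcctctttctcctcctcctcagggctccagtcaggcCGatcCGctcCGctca
IAH1 promoter: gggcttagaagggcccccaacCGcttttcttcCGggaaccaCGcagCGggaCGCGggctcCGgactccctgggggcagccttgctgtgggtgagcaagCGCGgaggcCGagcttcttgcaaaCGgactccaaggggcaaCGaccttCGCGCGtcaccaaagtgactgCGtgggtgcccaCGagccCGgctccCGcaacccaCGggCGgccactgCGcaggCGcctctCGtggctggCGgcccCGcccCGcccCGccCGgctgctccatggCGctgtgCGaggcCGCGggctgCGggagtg
Both windows hold 300 bases of RefSeq sequence around the annotated start (GRCh38.p14, chr15:56733460-56733759 on the minus strand for ZNF280D and chr2:9474301-9474600 on the plus strand for IAH1), with 37 and 34 CG dinucleotides. The median over the 8716 promoters of tested genes in the table is 26. Promoters of 13 genes at background in MEG3-OFF had a median of 20 (4 to 45) and those of 9 genes at background in MEG3-ON had a median of 24 (4 to 53), and both ranges spanned that median.

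Several of the others at background in MEG3-OFF encode enzymes. MAOA, which encodes the X-linked monoamine oxidase that breaks down serotonin and noradrenaline, was at 4.63 to 5.08 in MEG3-OFF and 6.45 to 7.18 in MEG3-ON (at least 2.12-fold lower, adjusted p = 8.82e-06). CAT, the peroxisomal catalase that removes hydrogen peroxide, was at 5.02 to 5.47 in MEG3-OFF and 6.43 to 7.14 in MEG3-ON (at least 2.06-fold lower, adjusted p = 4.06e-05), and both detected probes of the gene were lower. ME3, a mitochondrial malic enzyme, was at 4.86 to 5.46 in MEG3-OFF and 6.10 to 6.43 in MEG3-ON (at least 1.33-fold, adjusted p = 0.00111). TSPYL5, of the nucleosome assembly family, had 5 MEG3-OFF values between 4.50 and 4.66, against 7.39 to 7.79 in MEG3-ON (at least 3.51-fold, adjusted p = 3.02e-09). Its relative TSPYL2 moved the other way (0.56 ± 0.12, adjusted p = 0.0217) and lost that call without array 1 (0.0722), array 4 or array 9. The remaining genes of this kind were the zinc finger genes ZNF560 (at least 1.85-fold) and ZNF439 (at least 1.54-fold), TMEM88, which encodes a membrane inhibitor of WNT signalling (at least 1.85-fold), LIX1 and CNKSR2 (at least 1.31-fold each), the secreted WNT antagonist DKK1 (at least 1.15-fold) and CHMP4C, of the membrane scission machinery (at least 1.08-fold). CHMP4C lost its call without array 4 (adjusted p = 0.0921), array 1, array 2 or array 9, and the other 6 of these passed without any single array.

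In the other direction 11 genes were at background on all MEG3-ON arrays and above it on all MEG3-OFF arrays. RRAGB, which encodes a Rag GTPase that signals amino acid supply to mTORC1, was at 6.82 to 7.35 in MEG3-OFF, against 4.44 to 4.60 in MEG3-ON (at least 2.42-fold higher, adjusted p = 4.66e-08), with 2 of 2 probes higher. THEM6, a thioesterase family gene, was at 7.28 to 7.74 in MEG3-OFF and 4.98 to 5.26 in MEG3-ON (at least 3.19-fold, adjusted p = 8.79e-08). USP51, whose product removes ubiquitin from histone H2A, was at 6.55 to 7.07 in MEG3-OFF and 4.71 to 5.02 in MEG3-ON (at least 1.93-fold, adjusted p = 3.45e-06). KCNIP3, a calcium sensor that binds potassium channels, spread more widely, over 6.09 to 7.06 in MEG3-OFF and 4.56 to 5.28 in MEG3-ON (at least 1.58-fold, adjusted p = 0.000807). The rest were CHAC1, described with the amino acid response below, SLC35D3 (at least 1.51-fold), the secreted factor METRNL (at least 1.46-fold), the ligand TNFSF9 (at least 1.42-fold), the kinase TAOK3 (at least 1.22-fold), the kallikrein protease KLK6 (at least 1.21-fold) and CCDC186 (at least 1.09-fold). Several rested on single arrays: SLC35D3 lost its call without array 4 (adjusted p = 0.0544), KLK6 without array 2 (0.0537), TNFSF9 without array 4 (0.0957), array 2, array 6 or array 9, while TAOK3 (at most 0.132) kept the call only without array 5 or array 8 and CCDC186 (at most 0.108) only without array 1 or array 5.

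**Figure D1:**
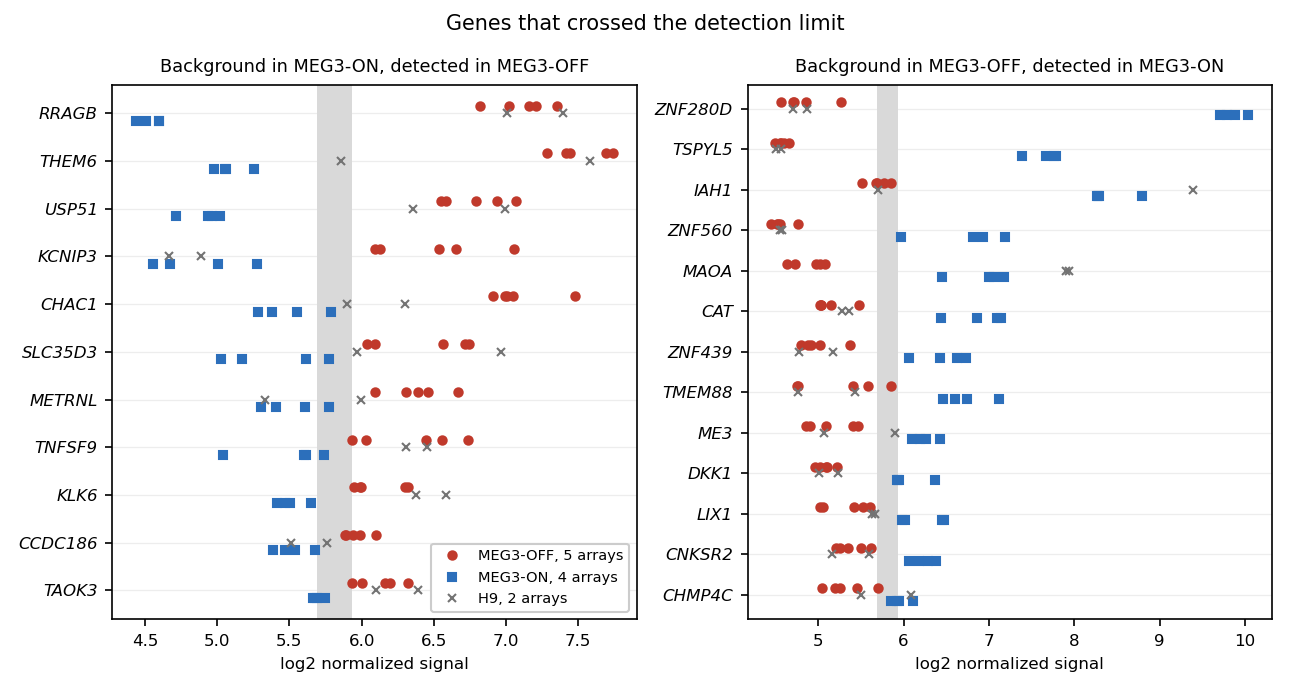
Log2 normalized signal of each array (x axis) for genes at background on all arrays of 1 group and detected on all of the other, with locus RNAs, neural markers and ST8SIA3 left out. Circles are the 5 MEG3-OFF arrays, squares the 4 MEG3-ON arrays and crosses the 2 arrays of H9, another hESC line; the grey band spans the lowest detected signals of the 9 NTU1 arrays (5.69 to 5.93), and in each row the circles and squares lie apart.

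H9, a line outside this comparison that is also labelled MEG3-OFF, did not side with 1 group throughout. Its 2 arrays had RRAGB at 7.01 and 7.40 and USP51 at 6.36 and 6.99, near MEG3-OFF, and ZNF280D at 4.87 and 4.70 and CAT at 5.36 and 5.28, also near MEG3-OFF. MAOA was at 7.90 and 7.94 in H9, above every NTU1 array, KCNIP3 was at 4.89 and 4.66, near MEG3-ON, and IAH1 was at 9.40 on 1 array and 5.70 on the other.

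By chromosome, the X held the highest share of changed genes. Of 394 tested X-linked genes 39 passed (9.90%), 20 higher and 19 lower, while the share over all other chromosomes was 3.35% and the next highest were 6.76% on chromosome 18, 5.71% on chromosome 13 and 5.31% on chromosome 14, which holds the MEG3 locus. The X median difference was -0.02, so the chromosome did not shift as a whole. At an unadjusted p below 0.05 the shares were 35.0% of X-linked genes and 21.9% of the rest. The X share was above that of all genes in each alternative run, at 1.78% against 0.297% with the methods' t-test after adjustment and at 19.5% against 10.7% with array weights. No test of this difference in shares was made.

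**Figure D2:**
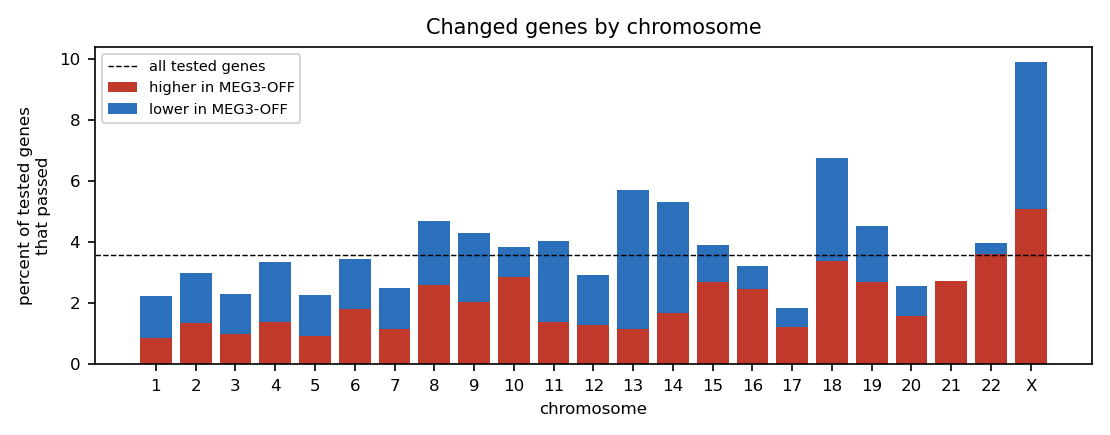
Percent of tested genes that passed the test on each chromosome (y axis), stacked as higher and lower in MEG3-OFF; the dashed line is the share over all tested genes (3.58%). The X bar is the tallest at 9.90%, with 20 genes higher and 19 lower.

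The changed X-linked genes stood partly in runs of neighbours that moved the same way. Over the genome, 7 runs had at least 3 changed genes of 1 direction among 5 tested genes in a row, a rule chosen after the values were seen, and 3 of these runs were on the X. The genes of such runs named here, other than MAGEH1, USP51, RRAGB, TNFSF9, NLRP2, UTP14A, ELF4 and the chromosome 15 genes NIPA1, NIPA2 and CYFIP1, were likewise chosen after their values were seen.

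Of the runs on the X, that with the largest differences held MAGEH1, of the MAGE family, USP51 and RRAGB, 3 tested genes in a row. MAGEH1 averaged 8.33 ± 0.10 on MEG3-OFF arrays and 6.78 ± 0.22 on MEG3-ON arrays (SD, n = 5 and 4) without overlap (1.55 ± 0.12, 2.93-fold, adjusted p = 8.93e-06), and the other 2 were at background in MEG3-ON as given above. HEPH, a copper-dependent ferroxidase gene further along the X, was at 7.48 to 7.88 on all MEG3-OFF arrays, but in MEG3-ON its levels were 7.37, 5.78, 4.50 and 4.88 (2.04 ± 0.43, adjusted p = 0.0224). It lost its call without array 4 (0.0868), array 2, array 6 or array 9. The RRAGB promoter, shown because the gene had the largest difference upwards on the X, held 14 CG dinucleotides (GRCh38.p14, chrX:55717499-55717798, plus strand; CG in capitals).
RRAGB promoter: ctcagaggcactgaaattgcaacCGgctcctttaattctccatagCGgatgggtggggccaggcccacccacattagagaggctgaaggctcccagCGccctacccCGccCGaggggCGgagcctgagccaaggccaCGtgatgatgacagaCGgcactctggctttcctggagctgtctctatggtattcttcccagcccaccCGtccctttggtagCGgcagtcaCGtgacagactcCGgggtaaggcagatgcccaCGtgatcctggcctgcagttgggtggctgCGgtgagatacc
Its count was below the median of 26 over promoters of tested genes, unlike those of ZNF280D and IAH1.

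A second run near the start of the X was lower in MEG3-OFF. It held TBL1X, part of a transcriptional corepressor complex, SHROOM2, an actin-binding protein gene, WWC3 and MID1, a microtubule-associated ubiquitin ligase, with GPR143 among them at -0.49 (adjusted p = 0.0730). MID1 was at 8.54 to 8.91 in MEG3-OFF and 9.44 to 9.83 in MEG3-ON (-0.96 ± 0.12, adjusted p = 0.000864), and SHROOM2 at 7.87 to 8.26 in MEG3-OFF and 8.74 to 9.17 in MEG3-ON (-0.86 ± 0.13, adjusted p = 0.00260). WWC3 (-0.75) lost its call without array 2 (adjusted p = 0.0609), array 7 or array 9, and TBL1X (-0.73, at most 0.121) kept the call only without array 5 or array 8. Further along, SMS, the spermine synthase of polyamine metabolism and also chosen after its values were seen, was at 11.89 to 12.37 in MEG3-OFF and 12.86 to 13.24 in MEG3-ON (-0.96 ± 0.13, adjusted p = 0.00108).

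The third run held ZDHHC9, a protein palmitoyltransferase gene, UTP14A, of ribosomal RNA processing, ELF4, an ETS transcription factor, and AIFM1, the mitochondrial apoptosis-inducing factor, all higher in MEG3-OFF. Between them BCORL1 (0.18) and RAB33A (0.34) did not pass. ELF4 was at 6.96 to 7.97 in MEG3-OFF and 6.25 to 6.74 in MEG3-ON (1.15 ± 0.19, adjusted p = 0.00506), and AIFM1 at 7.89 to 8.63 in MEG3-OFF and 7.29 to 7.72 in MEG3-ON (0.82 ± 0.15, adjusted p = 0.0114; 1 of its 2 detected probes was higher). ZDHHC9 lost its call without array 1 (0.0811), array 2, array 4, array 6 or array 9, and UTP14A, whose groups overlapped (9.18 to 10.07 in MEG3-OFF and 8.87 to 9.21 in MEG3-ON), kept the call only without array 5 or array 7 (at most 0.107). Array 7 had the lowest value of its group for all 4 genes of this run.

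Single X-linked genes outside the runs included PRRG1, a membrane protein gene (1.23 ± 0.15, adjusted p = 0.000766), MID1IP1, which promotes fatty acid synthesis (1.16 ± 0.20, 0.00712), and FAM199X (1.09 ± 0.15, 0.00125), all higher in MEG3-OFF. GPC3, a cell surface glypican that binds growth factors, chosen after its values were seen, was at 9.96 to 10.51 in MEG3-OFF and 11.03 to 11.34 in MEG3-ON (-0.99 ± 0.13, adjusted p = 0.000798). RPS4X was the 1 gene of 73 tested cytosolic ribosomal proteins that passed (-0.94 ± 0.19, 12.42 to 13.30 in MEG3-OFF and 13.33 to 14.12 in MEG3-ON, adjusted p = 0.0203), and it lost the call without array 4 (0.0806), array 1, array 2 or array 7.

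**Figure D3:**
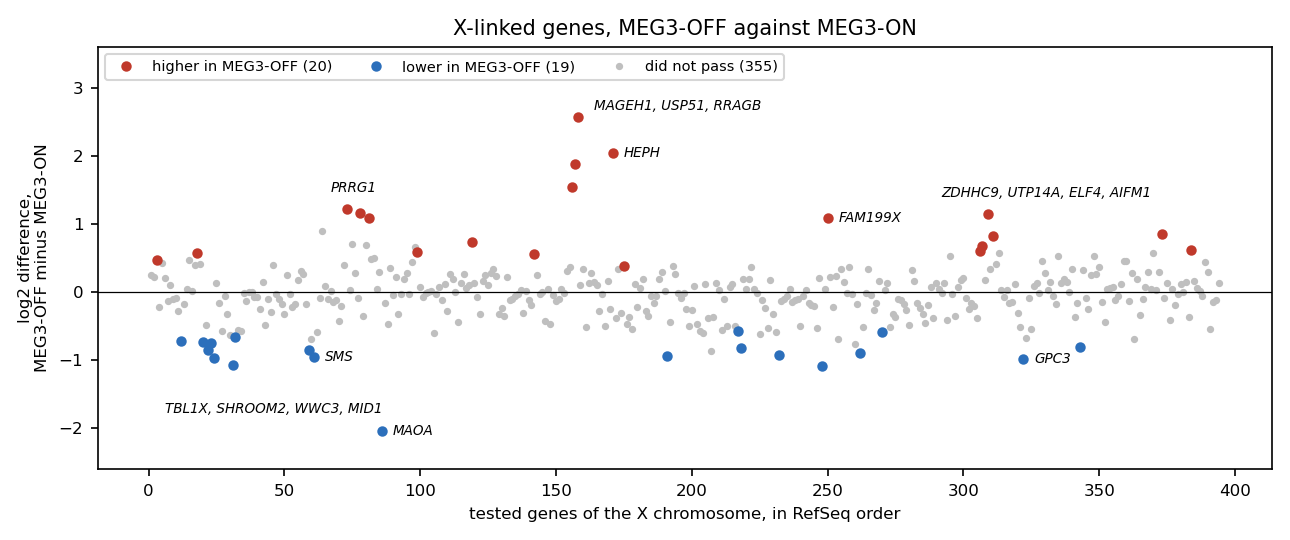
Log2 difference, MEG3-OFF minus MEG3-ON (y axis), of 394 tested X-linked genes in RefSeq order (x axis); large points passed the test. Runs named in the text are labelled: RRAGB lies highest (2.58), with HEPH (2.04), USP51 (1.88) and MAGEH1 (1.55) below it, and MAOA lies lowest (-2.04).

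On chromosome 15 a run of 3 genes in a row rose together by nearly the same amount. NIPA1 and NIPA2, magnesium transporter genes, rose by 0.88 ± 0.12 (adjusted p = 0.00113) and 0.90 ± 0.11 (0.000727), and CYFIP1, which regulates actin assembly, by 0.92 ± 0.11 (0.000477). CYFIP1 was at 9.98 to 10.19 in MEG3-OFF and 8.97 to 9.33 in MEG3-ON, and NIPA2 at 11.36 to 11.71 in MEG3-OFF and 10.55 to 10.80 in MEG3-ON. TUBGCP5, a gamma-tubulin complex gene named with them because it lies in the same region, differed by 0.33 ± 0.11 and did not pass (adjusted p = 0.104). The 3 calls held without any single array. DNA copy number was not measured.

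Chromosome 19 had 2 runs. One held TNFSF9 and CD70, ligands of the tumour necrosis factor family, with the cell polarity gene CRB3, all higher (0.84, 0.90 and 0.55), and TUBB4A at 0.42 that did not pass. CD70 and CRB3 (at most 0.125 and 0.123) each kept the call only without array 3, array 5 or array 8. The other held NLRP2 and NLRP7, genes of the NLR family used in oocytes and the early embryo, with CDC42EP5. NLRP2 was at 11.04 to 11.47 in MEG3-OFF and 9.79 to 10.38 in MEG3-ON (1.12 ± 0.14, adjusted p = 0.000727), and NLRP7 at 7.48 to 7.71 in MEG3-OFF and 6.47 to 7.27 in MEG3-ON (0.79 ± 0.15, adjusted p = 0.0114). CDC42EP5 (0.76, at most 0.109) kept its call without the same arrays as CD70, and LILRB1, between them, was at -0.31 and did not pass (adjusted p = 0.157).

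Genes of the amino acid response formed the list with the highest share of higher genes. When amino acids run short or the endoplasmic reticulum is stressed, the transcription factor ATF4 raises enzymes that make amino acids, transporters that import them and regulators that feed back. Of 36 tested members 11 were higher (30.6%, against 1.85% of all genes) and 0 lower, 31 differed upwards, and the median difference was 0.41, against 0.02 over all genes. Like the other lists, this list was chosen with earlier results of these data known, so its share is given only as a description. At an unadjusted p below 0.05 there were 26 higher and 1 lower, VLDLR (-0.43), where 11.3% of all tested genes were higher and 11% lower. ATF4 itself, a tested member of the list, differed by 0.41 and did not pass. VLDLR, ATF3, ATF5, ASNS, GDF15, JDP2, PCK2 and SLC3A2 are named after their values were seen. Leaving out 1 array gave between 3 and 17 higher genes, while the median stayed between 0.40 and 0.46.

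CHAC1, which degrades glutathione, had the largest difference of the members that passed, and was at 6.91 to 7.48 in MEG3-OFF, against 5.29, 5.38, 5.55 and 5.79 in MEG3-ON, all at background (at least 2.38-fold higher, adjusted p = 4.06e-05). INHBE, an inhibin beta subunit, was at 8.21 to 9.46 in MEG3-OFF and 7.35 to 7.88 in MEG3-ON (1.11 ± 0.21, adjusted p = 0.0126). The transcription factors CEBPB (0.81 ± 0.17, adjusted p = 0.0217), JDP2 (0.65 ± 0.15, 0.0321) and ATF5 (0.65 ± 0.13, 0.0192) and the pseudokinase TRIB3 (0.88 ± 0.18, 0.0200) were higher too. The CEBPB paralog CEBPD, outside this list, rose by 1.21 ± 0.18 (adjusted p = 0.00302). GDF15, a secreted stress factor, was at 5.71 to 8.11 in MEG3-OFF and 5.03 to 5.79 in MEG3-ON, and with this spread it did not pass (1.28 ± 0.36, adjusted p = 0.0676).

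Enzymes and transporters of the list were higher too. PSAT1, of serine synthesis, was at 12.43 to 12.75 in MEG3-OFF and 11.72 to 11.97 in MEG3-ON (0.75 ± 0.11, adjusted p = 0.00200). MTHFD2, of mitochondrial folate metabolism, rose by 0.68 ± 0.15 (adjusted p = 0.0265), the cationic amino acid transporter SLC7A1 by 0.64 ± 0.13 (0.0189), asparagine synthetase ASNS by 0.60 ± 0.12 (0.0200) and the mitochondrial carboxykinase PCK2 by 0.58 ± 0.14 (0.0380). CHAC1 and PSAT1 kept their calls without any single array. INHBE lost its call without array 4 (adjusted p = 0.0543), ATF5 without array 1 or array 4 (at most 0.0670), SLC7A1 without array 1, array 4 or array 9 (at most 0.0696), ASNS without array 1, array 2 or array 9 (at most 0.0608) and TRIB3 without array 2, array 4 or array 9 (at most 0.0726). CEBPB did so without array 2, array 4, array 6 or array 9 (at most 0.0806), while MTHFD2 (at most 0.0806) kept the call only without array 1, array 5 or array 8, JDP2 (at most 0.113) only without array 3, array 5 or array 8 and PCK2 (at most 0.12) only without array 5 or array 8. Related lists moved little: of 33 aminoacyl-tRNA synthetases AARS1 alone passed (0.49, higher, kept only without array 3 or array 5, at most 0.123), and of 24 chaperones and unfolded protein response genes of the endoplasmic reticulum 0 passed with limma, 1 with an unadjusted p below 0.05.

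**Figure D4:**
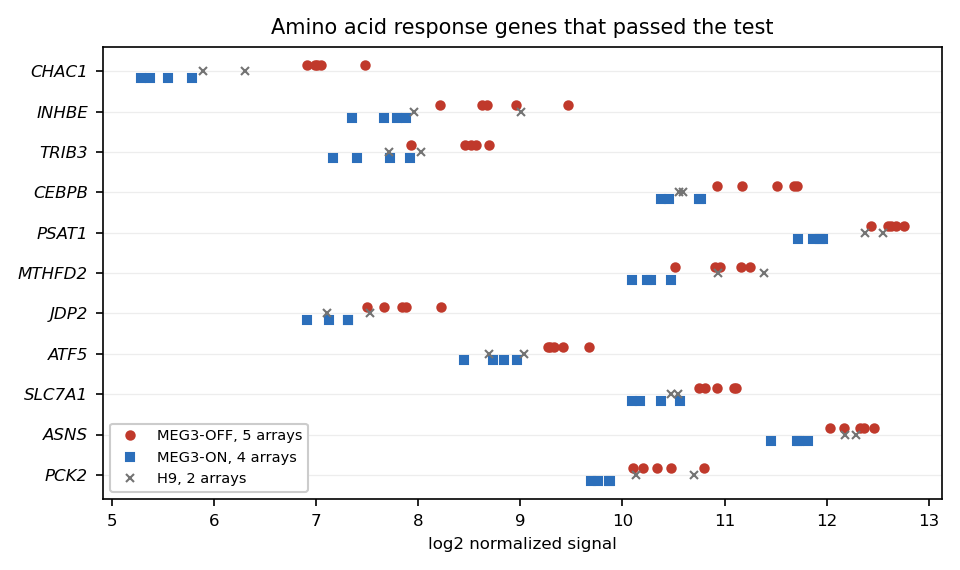
Log2 normalized signal of each array (x axis) for the 11 amino acid response genes that passed the test. Circles are the 5 MEG3-OFF arrays, squares the 4 MEG3-ON arrays and crosses the 2 H9 arrays; in each row the MEG3-OFF and MEG3-ON arrays lie apart, by the least in TRIB3, where MEG3-OFF array 5 (7.93) lies next to MEG3-ON array 1 (7.92).

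Promoters of these genes were searched for the letters TGATGNAA on both strands, the core of the element that ATF4 and its partners are known to bind. The 300-base window of 31 tested members was in the table, and 5 (16.1%) held a match: ASNS, CHAC1 and SLC7A1, which were higher, and ATF3 and SLC3A2, which did not pass. The share was 1.57% of 8716 promoters of tested genes and 3.67% of all 27305 promoters. The list was made of genes known for the ATF4 response, so a higher share could follow from how it was made. Among genes that passed, 10 of 158 promoters of higher genes (6.33%) and 2 of 146 of lower genes (1.37%) held one. ASNS, CHAC1 and SLC7A1 are among those 10, so this share is not separate from that of the list. The windows of the 3 higher members are printed with the matched letters in capitals.
ASNS promoter: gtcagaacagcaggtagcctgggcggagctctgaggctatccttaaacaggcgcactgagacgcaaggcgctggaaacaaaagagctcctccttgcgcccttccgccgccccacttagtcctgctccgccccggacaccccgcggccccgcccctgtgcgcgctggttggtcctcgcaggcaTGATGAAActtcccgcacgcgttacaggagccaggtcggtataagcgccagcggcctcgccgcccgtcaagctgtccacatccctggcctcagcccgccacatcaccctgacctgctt
CHAC1 promoter: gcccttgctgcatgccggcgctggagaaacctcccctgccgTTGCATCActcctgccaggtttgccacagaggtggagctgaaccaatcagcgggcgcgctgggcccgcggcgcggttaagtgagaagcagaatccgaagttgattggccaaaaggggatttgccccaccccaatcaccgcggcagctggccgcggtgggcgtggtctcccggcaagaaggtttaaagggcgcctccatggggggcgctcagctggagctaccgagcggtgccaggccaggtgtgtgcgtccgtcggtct
SLC7A1 promoter: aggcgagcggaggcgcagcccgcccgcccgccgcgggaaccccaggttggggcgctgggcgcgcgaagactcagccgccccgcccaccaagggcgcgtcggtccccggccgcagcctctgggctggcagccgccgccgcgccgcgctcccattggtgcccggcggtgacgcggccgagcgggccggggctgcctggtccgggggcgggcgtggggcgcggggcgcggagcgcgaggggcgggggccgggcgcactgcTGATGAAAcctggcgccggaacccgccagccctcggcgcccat
These are RefSeq windows of GRCh38.p14 at chr7:97872359-97872658 (minus strand), chr15:40953221-40953520 (plus) and chr13:29595639-29595938 (minus). The match began 68 bases before the annotated start in ASNS, 209 before it in CHAC1 (on the opposite strand) and 7 after it in SLC7A1. A match is a description of these letters, not evidence of binding.

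Metabolic lists held few changed genes. In the list of fatty acid synthesis, elongation and oxidation 3 of 48 were higher and 0 lower (6.25% called, against 3.58% of all tested genes). These were THEM6, ECHDC3, an enoyl-CoA hydratase family gene, and CPT1A, which admits long-chain fatty acids to mitochondria. ECHDC3 was at 7.81 to 9.02 in MEG3-OFF, and in MEG3-ON it split into 6.73 and 7.25 on 2 arrays and 4.61 and 4.62 on the other 2 (2.72 ± 0.49, adjusted p = 0.0104). CPT1A was at 7.48 to 7.67 in MEG3-OFF and 6.83 to 7.21 in MEG3-ON (0.53 ± 0.11, adjusted p = 0.0202), a call lost without array 4 (0.0713) or array 9. HMOX1, heme oxygenase, was higher at 7.67 to 8.37 in MEG3-OFF, against 6.97 to 7.49 in MEG3-ON (0.77 ± 0.15, adjusted p = 0.0158), and lost the call without array 4 (0.0544) or array 2. With CAT lower, it was the only other gene of 40 antioxidant and glutathione enzymes that passed (5% called). CA4, a carbonic anhydrase, was higher by 1.13 ± 0.25 (adjusted p = 0.0250) and kept the call only without array 3, array 5 or array 8 (at most 0.0921). Of 24 glycolysis genes 1 was higher (HK1, 0.48) and 1 lower (PFKFB4, -0.80), 8.33% called, against 3.58% of all tested genes. Of 77 subunits of oxidative phosphorylation 1 was higher (1.3% called). Of 22 cholesterol synthesis genes 0 passed with limma. At an unadjusted p below 0.05, 5 of them were lower and 0 higher (11% and 11.3% over all tested genes). HK1 (at most 0.148) kept the call only without array 5 or array 8, and PFKFB4 (at most 0.0930) only without array 3, array 5 or array 8.

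**Figure D5:**
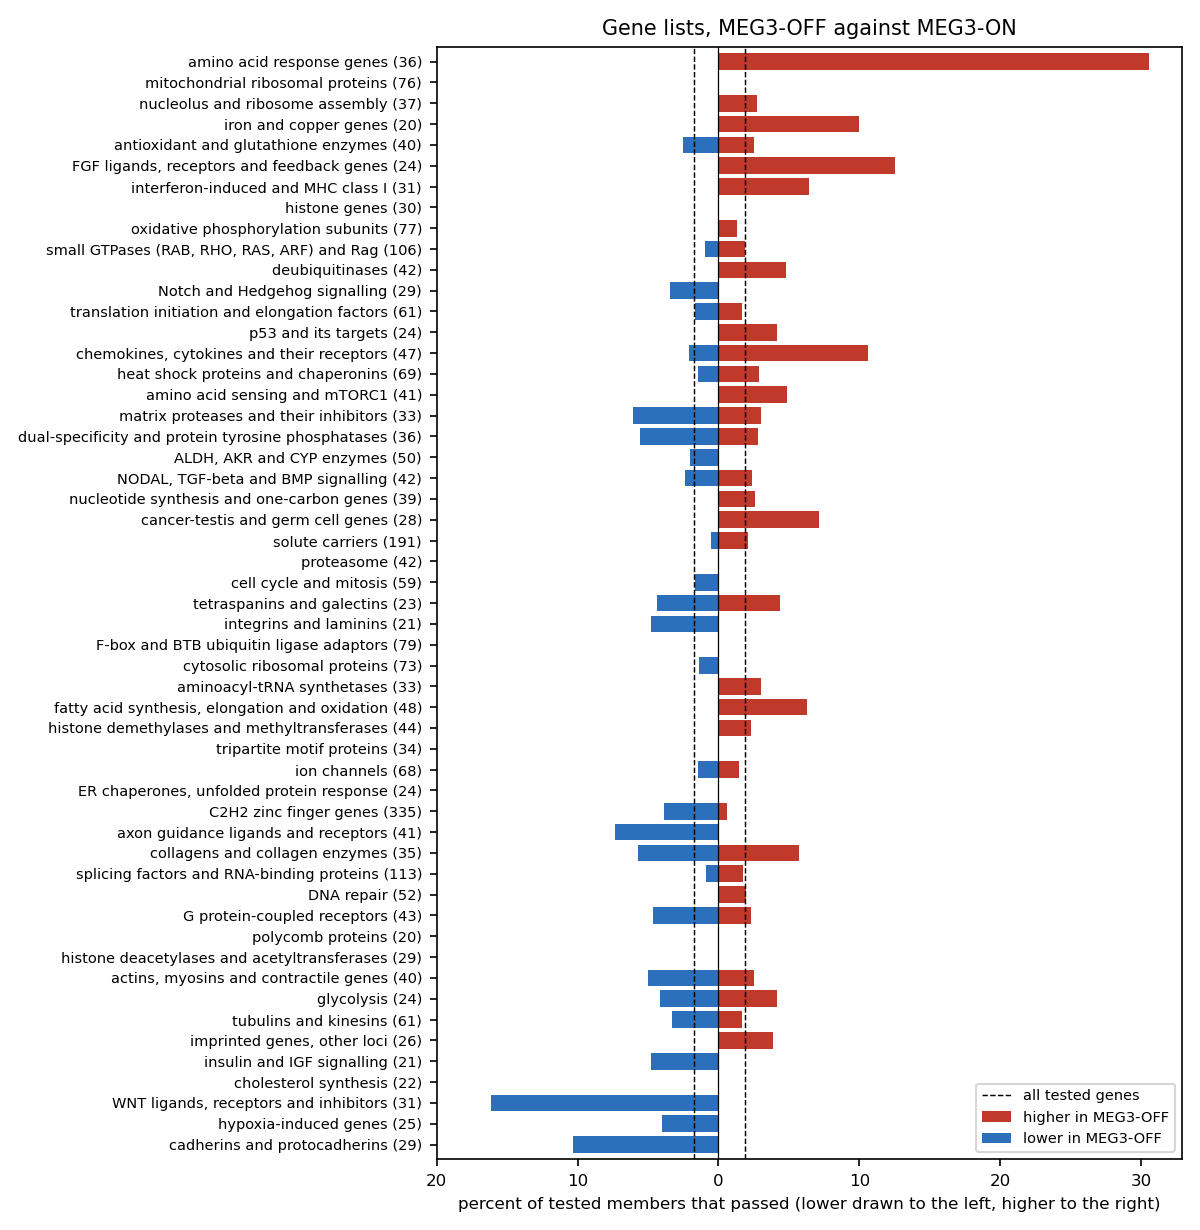
Percent of the tested members of each list (number in brackets) that passed the test, higher in MEG3-OFF to the right and lower to the left, for lists with at least 20 tested members other than pluripotency, neural and locus genes, ordered by their median difference. Dashed lines are the shares over all tested genes (1.85% higher, 1.74% lower); amino acid response genes reach furthest to the right (30.6%) and WNT genes furthest to the left (16.1%).

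Signalling genes changed by pathway and in different directions. WNT proteins act through Frizzled receptors, which secreted antagonists restrain, on transcription factors of the TCF and LEF family. Of 31 tested WNT genes 5 were lower (16.1%, against 1.74% of all genes) and 0 higher, with a median of -0.19: the receptors FZD2 (-1.18 ± 0.23, adjusted p = 0.0164) and FZD3 (-0.81 ± 0.15, 0.0101), the antagonists SFRP1 (-1.04 ± 0.20, 0.0164) and DKK1 (0.000758), and the transcription factor LEF1 (-0.97 ± 0.17, 0.00768). The members thus include both activators and inhibitors of the pathway. FRZB, another secreted antagonist, was at 9.12 to 10.15 in MEG3-OFF and 10.76 to 11.32 in MEG3-ON (-1.32 ± 0.20, adjusted p = 0.00267), and WLS, which carries WNT proteins to the cell surface, was at 5.29 to 6.56 in MEG3-OFF and 6.80 to 8.01 in MEG3-ON (-1.60 ± 0.26, 0.00543). Both stand outside the list, and FRZB was chosen after its values were seen. FZD2 and SFRP1 lost their calls without array 4 (0.0670 and 0.0666).

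Of genes around fibroblast growth factor (FGF) signalling, 3 were higher. ETV4, an ETS transcription factor induced by FGF, was at 8.16 to 8.72 in MEG3-OFF and 7.12 to 7.54 in MEG3-ON (1.12 ± 0.13, adjusted p = 0.000507), and its relative ETV5 at 7.67 to 8.48 in MEG3-OFF and 6.45 to 7.08 in MEG3-ON (1.27 ± 0.19, 0.00253). SPRED2, an inhibitor of the RAS to ERK pathway, rose by 0.60 ± 0.11 (adjusted p = 0.0106). All 3 passed without any single array. They were the calls among 24 tested FGF ligands, receptors and feedback genes (12.5%, against 3.58% of all tested genes), and 0 passed as lower. At an unadjusted p below 0.05, 9 were higher and 3 lower (11.3% and 11% over all tested genes).

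The cytokine and interferon-related genes that passed were mostly higher. Of 47 tested chemokines, cytokines and receptors 5 were higher and 1 lower (12.8% called, against 3.58% of all tested genes). At an unadjusted p below 0.05, 11 were higher and 7 lower (11.3% and 11% over all tested genes), and the median was 0.06. The chemokines CXCL1 (1.08 ± 0.23, adjusted p = 0.0228) and CXCL12 (0.76 ± 0.16, 0.0203), TNFSF9, and the interleukin subunits IL23A (0.69 ± 0.16, 0.0380) and IL12A (0.53 ± 0.13, 0.0435) were higher. The receptor TNFRSF19, at 7.64 to 8.39 in MEG3-OFF and 9.01 to 9.31 in MEG3-ON, was lower (-1.08 ± 0.16, 0.00226). SOCS1, a feedback inhibitor of cytokine signalling chosen after its values were seen, was at 8.25 to 9.08 in MEG3-OFF and 7.10 to 7.79 in MEG3-ON (0.99 ± 0.18, adjusted p = 0.0115). IFITM1, of the antiviral interferon-induced transmembrane family, was at 12.94 to 13.41 in MEG3-OFF and 12.12 to 12.54 in MEG3-ON (0.85 ± 0.13, adjusted p = 0.00260), and IFITM3, a close paralog whose probe may read both, rose by 0.56 ± 0.13 (0.0308). They were the 2 calls among 31 interferon-induced and MHC class I genes (6.45%, against 3.58% of all tested genes). CXCL12 lost its call without array 9 (0.0552), CXCL1 without array 1, array 3, array 4, array 6 or array 7 (at most 0.0868), while IL23A (at most 0.110) kept the call only without array 5, array 6 or array 8, IL12A (at most 0.125) only without array 2, array 5 or array 8 and IFITM3 (at most 0.0906) only without array 3, array 5 or array 8.

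A few adhesion and guidance genes were lower. Cadherins hold cells of a kind together through calcium-dependent contacts. Of 29 tested cadherins and protocadherins 3 were lower and 0 higher (10.3% called, against 3.58% of all tested genes). In this list 3 had a difference above 0, the median was -0.32, and 14 were lower and 0 higher at an unadjusted p below 0.05 (over all tested genes, 11% lower and 11.3% higher). CDH11 was at 6.05 to 6.46 in MEG3-OFF and 7.28 to 7.80 in MEG3-ON (-1.32 ± 0.13, adjusted p = 8.93e-05), CDH6 at 6.06 to 8.10 in MEG3-OFF and 8.78 to 9.71 in MEG3-ON (-1.79 ± 0.34, 0.0125), and CDH2, also a neural marker, at a mean of 10.38 ± 0.45 in MEG3-OFF and 11.52 ± 0.25 in MEG3-ON (SD, n = 5 and 4; -1.14 ± 0.21, limma adjusted p = 0.0104). CDH6 lost its call without array 4 (0.0539). Neural progenitor markers moved with these genes: 13 of 26 tested were lower and 0 higher (50% called, against 3.58% of all tested genes). Of 34 measured, 19 to 22 were above background on MEG3-OFF arrays and 26 or 27 on MEG3-ON arrays. The mean level of the 34 was 6.80 to 7.41 in MEG3-OFF and 7.83 to 8.12 in MEG3-ON. Fewer cells of a type and less RNA per cell cannot be told apart on these arrays, and the part of neural cells in these results was not tested.

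Of 41 axon guidance ligands and receptors 3 were lower and 0 higher (7.32% called, against 3.58% of all tested genes). At an unadjusted p below 0.05, 10 were lower and 1 higher (11% and 11.3% over all tested genes), and the median was -0.05. The receptor EPHA4 was at 6.84 to 7.69 in MEG3-OFF and 8.79 to 9.49 in MEG3-ON (-1.68 ± 0.19, adjusted p = 0.000277), the ephrin ligand EFNB2 at 7.60 to 8.18 in MEG3-OFF and 8.49 to 8.96 in MEG3-ON (-0.96 ± 0.14, 0.00245), and the repellent SEMA3A was lower by a difference of -0.68 ± 0.15 (0.0252), a call kept only without array 3, array 5 or array 8 (at most 0.0798). FLRT3, an adhesion protein of guidance and FGF signalling, was above background on 2 of 5 MEG3-OFF arrays, at 5.14 to 5.97, and at 7.01 to 7.99 in MEG3-ON (adjusted p = 0.000214).

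Matrix genes went both ways. FBN2, a fibrillin of elastic microfibrils, was at 7.54 to 8.08 in MEG3-OFF and 9.17 to 9.65 in MEG3-ON (-1.57 ± 0.14, 2.96-fold lower, adjusted p = 4.61e-05), and PAMR1 at 8.19 to 9.00 in MEG3-OFF and 9.61 to 10.15 in MEG3-ON (-1.43 ± 0.17, 0.000507). VWF, the clotting and endothelial adhesion glycoprotein, was above background on array 8 alone of that group (7.00, the others 4.92 to 5.71) and at 7.23 to 8.55 in MEG3-ON (adjusted p = 0.00555). Of 35 collagens and collagen enzymes COL22A1 and COL6A1 were higher and COL4A6 and COL9A2 lower (11.4% called, against 3.58% of all tested genes). COL22A1 was at 5.82 to 6.86 in MEG3-OFF, above background on 4 of 5 arrays, and at background in MEG3-ON (at least 1.52-fold higher, adjusted p = 0.000249), and COL6A1 rose by 0.67 ± 0.12 (0.00826). COL4A6 (-0.89, at most 0.0861) kept the call only without array 3, array 5 or array 8, and COL9A2 (-0.77, at most 0.133) only without array 3 or array 5.

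Zinc finger genes were the largest family examined. Of 335 tested C2H2 genes 13 were lower and 2 higher (4.48% called, against 3.58% of all tested genes). The 2 higher were ZNF16 (1.00, adjusted p = 0.000180) and ZSCAN2 (0.79, 0.0370). The median was -0.04, and 53 of the 335 were lower and 20 higher at an unadjusted p below 0.05. Both counts leaned to lower genes. Over all tested genes the directions were nearly even, with 187 lower and 199 higher calls (1.74% and 1.85%), and 1189 and 1217 (11% and 11.3%) at an unadjusted p below 0.05. Besides ZNF280D, ZNF560 and ZNF439, the largest decreases were in ZNF585A (-1.26, adjusted p = 0.0152), ZNF521 (-1.20, 0.0249) and ZNF562 (-0.84, 0.0288). ZNF562 and ZSCAN2 are named after their values were seen. ZNF585A lost its call without array 1 (0.0547) or array 4, ZNF562 without array 1 (0.0856), array 2 or array 7, and ZNF521 without array 4 (0.0921), array 1, array 6 or array 9, while ZSCAN2 (at most 0.115) kept the call only without array 5, array 6 or array 8. The count of lower genes was 3 to 21 when 1 array was left out. General chromatin lists had few calls or none: 0 of 30 histone genes (0 higher and 4 lower at an unadjusted p below 0.05), 0 of 14 DNA methylation enzymes (2 and 2), 0 of 20 polycomb proteins (2 and 1), 0 of 29 histone deacetylases and acetyltransferases (1 and 6) and 1 of 44 histone demethylases and methyltransferases. These counts are from limma.

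Of 28 tested genes in the cancer-testis and germ cell list 2 were higher and 0 lower (7.14% called, against 3.58% of all tested genes). These were DPEP3 and MAGEH1, a MAGE family gene already counted in the run on the X, so the share rests on 2 genes. Whether MAGEH1 is a germ cell gene was not examined. At an unadjusted p below 0.05, 4 were higher and 3 lower (11.3% and 11% over all tested genes). VENTX, KHDC3L and HSPA2, described with DPEP3, stand outside that list. VENTX, a homeobox gene, averaged 9.83 ± 0.13 in MEG3-OFF and 8.69 ± 0.09 in MEG3-ON (SD, n = 5 and 4) without overlap (1.14 ± 0.11, adjusted p = 5.08e-05), and KHDC3L, an oocyte gene chosen after its values were seen, was above background on all 5 MEG3-OFF arrays and 1 of 4 MEG3-ON arrays (1.03 ± 0.19, 0.0103). DPEP3, a dipeptidase gene of the testis, was at 8.34 to 9.85 in MEG3-OFF and 6.49 to 7.88 in MEG3-ON (1.89 ± 0.31, 3.71-fold, 0.00506), and HSPA2, a heat shock protein of male germ cells, at 9.56 to 10.68 in MEG3-OFF and 8.70 to 9.23 in MEG3-ON (1.16 ± 0.20, 0.00756).

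Other genes among the largest changes were spread over lists or in none. KHDRBS3, a splicing regulator, was 1 of 2 higher genes (with 1 lower) among 113 tested splicing factors and RNA-binding proteins (2.65% called, against 3.58% of all tested genes). It was at 9.64 to 9.95 in MEG3-OFF. In MEG3-ON it was at 8.33 and 8.35 on 2 arrays and 7.07 and 6.82 on the other 2 (2.18 ± 0.28, 4.52-fold higher, adjusted p = 0.00102). These were the same arrays that were high and low for ECHDC3. LIAT1 was at 8.41 to 8.87 in MEG3-OFF and 6.77 to 7.22 in MEG3-ON (1.72 ± 0.13, 3.29-fold, 8.82e-06), and CHST8, a sulfotransferase gene, at 7.03 to 8.01 in MEG3-OFF and 6.15 to 6.57 in MEG3-ON (1.19 ± 0.17, 0.00245). Among decreases, UBE2T, a ubiquitin-conjugating enzyme of DNA crosslink repair, was at 8.69 to 9.04 in MEG3-OFF and 9.84 to 10.51 in MEG3-ON (-1.41 ± 0.15, 2.66-fold lower, 0.000182). DNAJC15, of the mitochondrial import machinery, is in the list of heat shock proteins and chaperonins. Of 69 tested members 2 were higher, HSPA2 among them, and 1 lower (4.35% called, against 3.58% of all tested genes). DNAJC15 was at 5.07, 5.17 and 5.09 on 3 MEG3-OFF arrays and at 7.09 and 6.81 on array 7 and array 8. In MEG3-ON it was at 7.53 to 7.93 (adjusted p = 0.0217). Its call was lost without array 1, array 2, array 4, array 6 or array 9 (at most 0.0741).

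Lists of housekeeping machinery held few calls. The limma fit called 0 of 76 mitochondrial ribosomal proteins. At an unadjusted p below 0.05, 19 were higher and 3 lower (11.3% and 11% over all tested genes), 53 differed upwards and the median was 0.14. The count of 0 depended on the setting: 5 were higher on the authors' normalized values, 5 without background correction, 4 with trend and robust eBayes and 11 (with 1 lower) with array weights, and 0 to 10 were higher when 1 array was left out. The limma fit called 0 of 42 proteasome subunits (5 higher and 4 lower at an unadjusted p below 0.05) and 0 of 79 F-box and BTB adaptors (4 and 6). In the list of 59 cell cycle and mitosis genes CDK2 was lower (-0.60, adjusted p = 0.0321) and kept the call only without array 2 or array 5 (at most 0.113), and of 52 DNA repair genes MGMT, which removes alkyl groups from guanine, was higher (0.99 ± 0.22, 0.0301), losing the call without array 1 (0.0785), array 2, array 4, array 6 or array 9. Metallothioneins, which bind zinc and copper, all differed upwards, 7 of 7 with a median of 0.85, and 0 passed with limma (4 at an unadjusted p below 0.05). MT1X came nearest, at 11.50 to 12.69 in MEG3-OFF and 10.52 to 11.83 in MEG3-ON (0.97 ± 0.28, adjusted p = 0.0676).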

How the data were processed

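RNA of 12 samples was hybridised to Illumina HumanHT-12 v4 expression arrays, 9 of them NTU1 arrays grouped by the MEG3 status in their genotype labels. The deposited table holds, per the file headers, a mean bead intensity and a detection p-value per probe and array, not normalized. A second table holds intensity values that the authors log-transformed and quantile normalized in Partek and that stand on a linear scale. Per the study's methods, the array content was derived from an NCBI RefSeq release and the arrays were scanned on a BeadArray Reader.

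Intensities were background corrected and quantile normalized over 12 arrays with neqc of limma 3.58.1 (offset 16, R 4.3.3) and put on the log2 scale. Of 47230 probes, 30113 had 1 gene symbol, 8 several and 17109 none in the platform annotation. Each gene was read by the probe with the highest mean, and genes detected (p under 0.01) on at least 4 of 9 arrays were tested with lmFit and eBayes on MEG3-OFF minus MEG3-ON, with Benjamini-Hochberg adjustment. The fit was tested on simulated data. Where a gene was at background on all arrays of a group, the fold is a bound: the mean of the other group over the mean of, per array, the higher of the lowest detected signal and the gene's own. The number of arrays limits the precision.

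The named genes were mainly taken from the 30 largest changes each way, up to 6 changed genes per list or chromosome described (the 2 smallest p where none passed), and genes crossing background. Not every gene of these sets is named. Genes marked as chosen after their values were seen are named in addition. Members and lists were chosen with earlier results of these data known. Genes of the Y chromosome and others that differ by sex were left out before testing. They are thus in no count or share given here, including those of the X, nor in the text. Alternatives were the authors' normalized values, no background correction, other filters, probe rules, eBayes settings and array weights, the H9 arrays in the fit, the methods' t-test, and leaving out each array. Promoter sequences are from RefSeq (GRCh38.p14), matched by Entrez gene ID. Figures were drawn with matplotlib 3.10.9 in Python 3.11.15.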

Additional observations from a re-analysis of the deposited data

Results flagged for a closer look

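Over the 128 named genes, 256 sets of arrays of 1 group were searched for an array far from the others of its group, and 12 were found. Chance gives about 1 in 20 such sets.

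In MEG3-OFF, array 9 stood high for CAT (5.474, the others 5.021 to 5.145) and SOCS1 (9.082, the others 8.253 to 8.477), array 7 high for CHAC1 (7.476, the others 6.908 to 7.048) and low for ZDHHC9 (10.73, the others 11.14 to 11.23), and array 6 high for CDH11 (6.46, the others 6.051 to 6.165). In MEG3-ON, array 1 stood high for IAH1 (8.795, the others 8.271 to 8.288) and DKK1 (6.368, the others 5.921 to 5.951) and low for ZDHHC9 (10.21, the others 10.55 to 10.59) and MEG3 (13.15, the others 14.04 to 14.12). MEG3-ON array 4 stood low for CEBPD (6.335, the others 6.981 to 7.048) and CXCL12 (8.647, the others 9.311 to 9.359), and MEG3-ON array 3 high for KHDC3L (6.096, the others 5.324 to 5.45).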

How the results depend on the processing

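No gene named in the text reversed its direction in any alternative or without any single array. Of 115 named genes that passed, 109 also passed on the authors' normalized values, 109 without background correction, 115 with the 9 NTU1 arrays normalized alone, 90 of 115 with no filter on dim probes, 113 of 113 with detection on all arrays of a group, 109 with the mean of a gene's probes, 109 with trend and robust eBayes, 115 with array weights and 111 with the H9 arrays in the fit. The methods' t-test kept 105 at an unadjusted p under 0.05 and over 1.5-fold, and 22 after Benjamini-Hochberg adjustment.

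Counts moved more than directions. Array weights gave 1155 changed genes (602 higher, 553 lower), 77 on the X, 19 higher amino acid response genes, 29 lower C2H2 zinc finger genes, 9 lower WNT genes and 7 lower cadherins. The methods' t-test after adjustment gave 32 (14 higher, 18 lower), 7, 2, 1, 0 and 1 for the same counts, and 10 of the genes crossing background. WNT genes lower numbered 9 also on the authors' normalized values, 9 without background correction and 9 with trend and robust eBayes, and cadherins lower numbered 6 with the unadjusted t-test. The cause was not tested. Leaving out 1 array gave 137 to 996 changed genes (59 to 524 higher, 78 to 472 lower), 21 to 68 on the X, 3 to 17 amino acid response genes, 3 to 21 zinc finger genes, 3 to 9 WNT genes, 2 to 7 cadherins and 26 to 31 genes crossing background. No paired analysis was possible because the NTU1 groups share no replicate numbers. Levels near the lowest detected signals (5.69 to 5.93) give only bounds.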
